A study of Mus musculus with 6 samples.

Results

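The genes described are 10 regulators and effectors of epithelial splicing and identity. They were taken by symbol, and 8 of them were measured among the 14162 genes with values. They were Esrp1 (ENSMUSG00000040728), Esrp2 (ENSMUSG00000084128), Grhl2 (ENSMUSG00000022286), Ovol2 (ENSMUSG00000037279), Elf3 (ENSMUSG00000003051), St14 (ENSMUSG00000031995), Rab25 (ENSMUSG00000008601) and Zeb2 (ENSMUSG00000026872). Ehf and Zeb1 were not analysed here. The measured genes were compared between lungs with and without deletion of Dnmt1, the methyltransferase that copies DNA methylation onto new strands.

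Epithelial cells are kept distinct from mesenchyme by transcription factors, splicing factors and the proteins they control. Esrp1 and Esrp2 encode RNA-binding proteins that select epithelial exons in many transcripts, among them the exon that decides which ligands the receptor FGFR2 binds. GRHL2, OVOL2, ELF3 and EHF are transcription factors of epithelia, RAB25 recycles membrane proteins to the apical surface, and ST14 is matriptase, a membrane serine protease. ZEB1 and ZEB2 are zinc-finger repressors of the opposite state, bind E-box sequences in epithelial promoters, and are made mainly by mesenchymal, neural crest, endothelial and blood cells. In the developing lung the airway epithelium makes the first set, and the mesenchyme around it makes the ZEB factors.

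RNA came from whole mouse lung at E12.5, with 3 libraries labelled ShhCre-Dnmt1KO, here Dnmt1KO, and 3 labelled as wild-type littermates, here WT. Cre expression follows Shh, a gene of the airway endoderm, so most mesenchyme, vessels and blood in the sample would still carry Dnmt1. Only the Dnmt1KO label mentions Cre, and effects of the Cre allele and of the deletion cannot be told apart. Whether a library is 1 embryo or a pool is not stated, and p-values therefore cover only the spread among these 6 samples, which may be technical.

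Depth ran from 18192629 to 21046831 reads in Dnmt1KO and from 20599736 to 25597662 in WT. The deleted gene, Dnmt1, averaged 15.43 ± 0.13 on the deposited log2 scale in Dnmt1KO libraries against 15.74 ± 0.02 in WT (SD, n = 3), with no overlap between the groups (-0.31 ± 0.09 SE, limma adjusted p = 0.507). Nkx2-1, the lung lineage factor, had 2252 to 4215 reads in every library. One Dnmt1KO library, replicate 1, held 3 reads over 4 genes of the Y chromosome against at least 4155 in each other library, so sex was not balanced. Across the table, limma's adjusted p was under 0.05 for 40 genes with higher values in Dnmt1KO (0.282%) and 1 with a lower value (0.00706%), together 0.29% of those tested.

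Promoter sequence was at hand for 4 of the 10 genes in a RefSeq-based table of build GRCm38.p6, namely Elf3, Ovol2, Rab25 and Zeb2. The 3 epithelial ones are shown because they differ in the E-box that ZEB factors bind, here CACCTG or its reverse complement CAGGTG, searched on both strands. Each line gives the 250 bases before the annotated transcription start, 5′ to 3′ on the gene's strand, with E-boxes in capitals.
Rab25, chr3:88548280-88548529, minus strand: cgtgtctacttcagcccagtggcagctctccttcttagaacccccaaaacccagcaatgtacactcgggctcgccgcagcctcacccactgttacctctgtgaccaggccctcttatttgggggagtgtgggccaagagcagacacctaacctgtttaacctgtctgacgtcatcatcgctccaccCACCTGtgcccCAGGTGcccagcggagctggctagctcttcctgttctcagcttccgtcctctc
Elf3, chr1:135258473-135258722, minus strand: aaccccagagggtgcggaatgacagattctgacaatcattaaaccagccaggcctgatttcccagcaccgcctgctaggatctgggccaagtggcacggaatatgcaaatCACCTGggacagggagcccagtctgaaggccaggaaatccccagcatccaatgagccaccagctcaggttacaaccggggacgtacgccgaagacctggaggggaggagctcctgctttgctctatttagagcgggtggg
Ovol2, chr2:144331363-144331612, minus strand: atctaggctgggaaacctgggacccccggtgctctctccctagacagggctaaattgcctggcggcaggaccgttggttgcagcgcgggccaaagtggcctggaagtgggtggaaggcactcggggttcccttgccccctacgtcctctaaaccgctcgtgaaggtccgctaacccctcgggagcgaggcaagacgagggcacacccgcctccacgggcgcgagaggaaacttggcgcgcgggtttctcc

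The Rab25 window held 2 E-boxes, which begin at -64 and -53 from the start, and the Elf3 window held 1, which begins at -140. The Ovol2 window and the 4 Zeb2 windows held none. Over all 32851 windows of 300 bases, which add 50 bases after the start, 20.2% had at least 1 E-box and 2.88% had 2 or more. CG dinucleotides, the sites that DNMT1 maintains, numbered 9 in the Rab25 window, 12 in the Elf3 window and 25 in the Ovol2 window, against a median of 7 over all windows. The Ovol2 window had more CG than 81.6% of all windows. Methylation was not measured here, and these matches describe the sequence only.

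Levels between genes were compared as RPKM, reads per kilobase of exon scaled to library depth, with exon lengths from the GENCODE M21 annotation of GRCm38. In WT lungs Zeb2 stood at 10.2 ± 0.94 RPKM (SD, n = 3), Esrp2 at 8.50 ± 0.57, Esrp1 at 6.63 ± 0.49, St14 at 6.21 ± 1.0 and Rab25 at 4.52 ± 0.65. Grhl2 followed at 2.80 ± 0.15, Elf3 at 1.96 ± 0.36 and Ovol2 at 1.49 ± 0.20. The WT ranges of Zeb2 and Esrp2 did not overlap, nor did those of Esrp2 and Esrp1, St14 and Rab25, Rab25 and Grhl2, or Grhl2 and Elf3. Those of Esrp1 and St14 overlapped, so these libraries did not separate them. The lowest WT library of Elf3 (1.69) was just above the highest of Ovol2 (1.66). Lengths counted all annotated exons of a gene, and the ranges do not cover that choice. By reads alone Esrp1 exceeded Esrp2 in every library, so the order of this pair rests on their lengths of 6.3 and 4.34 kb. Epcam, the epithelial surface marker, was at 62.6 ± 7.57 RPKM on the same scale. In Dnmt1KO the ranges of the 2 splicing factors overlapped, at 5.98 ± 0.97 for Esrp2 and 5.82 ± 1.5 for Esrp1.

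The epithelial regulators had no common direction. None of the 8 genes passed limma's test over all genes, and voom on the recovered reads called none either, against 0.29% of all genes called by limma. At an unadjusted p under 0.05 there was 1 gene, Esrp2, against a background of 4.52% in either direction, with 1.6% of all genes lower. Of the 7 epithelial genes 4 had a negative and 3 a positive fold change, with a median log2 fold change of -0.15 beside -0.0001 over all genes. Because lungs were not sorted, fewer epithelial cells and less RNA per cell cannot be told apart in any of these values.

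**Figure D1:**
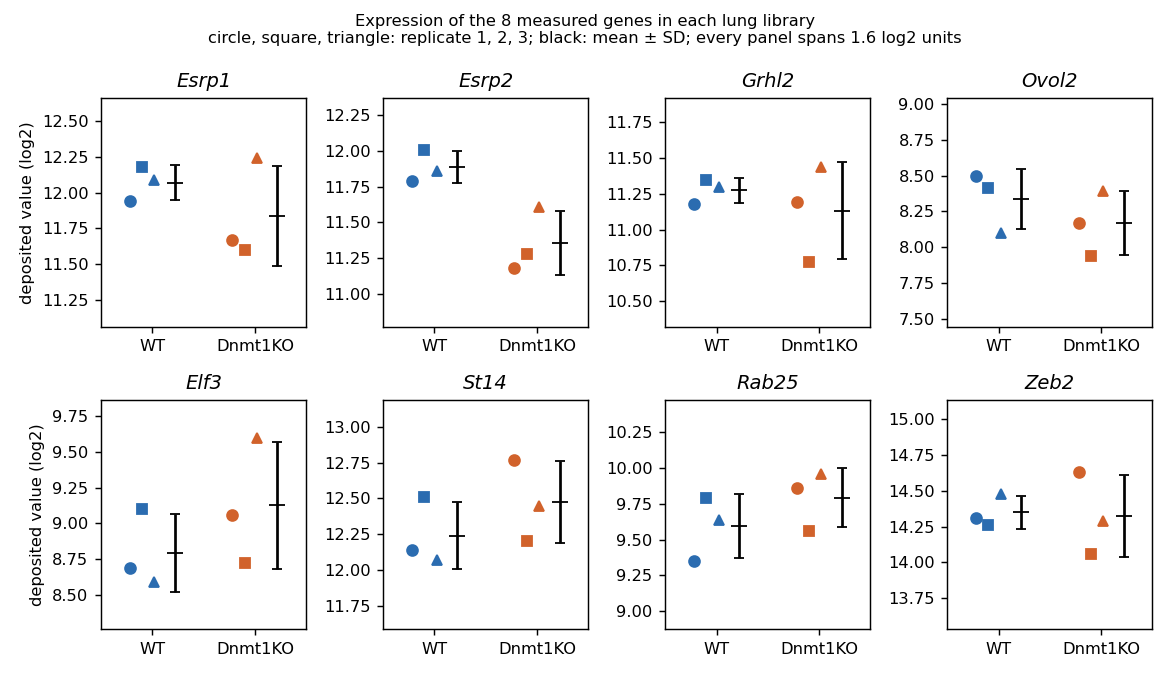
Deposited log2 values of the 8 measured genes in the 3 WT (blue) and 3 Dnmt1KO (orange) libraries, with marker shapes for replicates and black bars for the mean ± SD. The groups are separate for Esrp2 and overlap for the other 7 genes.

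Esrp2, the second of the paired splicing factors, had the largest difference of the 8 genes. Its log2 values were 11.18, 11.28 and 11.61 in Dnmt1KO replicates 1, 2 and 3 and 11.79, 12.01 and 11.86 in WT, from 414, 490 and 646 reads against 887, 815 and 844. The highest Dnmt1KO library was still under the lowest WT library, a separation that 3.99% of all genes showed in this direction and 4.79% in the other. The difference of -0.53 ± 0.13 (SE) put Dnmt1KO at 69.1% of WT, with a 95% interval from 56.2% to 85.0%. Over all genes this was no call (limma adjusted p = 0.306). An exact permutation test, two-sided, gave p = 0.1, and groups of 3 cannot go lower. Without Dnmt1KO replicate 3, the highest of its group, the difference was -0.66 (limma adjusted p = 0.0688), and with sample weights it was -0.57 (adjusted p = 0.0774).

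Esrp2 shares 219 bases, 5.05% of its exon length, with the opposite-strand gene Nfatc3, and the sources used here do not say whether strand was counted. Nfatc3 had log2 values of 13.62, 13.52 and 13.32 in Dnmt1KO and 13.55, 13.41 and 13.54 in WT. The Nfatc3 groups overlapped, with a difference of -0.01 ± 0.10 (SE, limma adjusted p = 1). Esrp2 minus Nfatc3 was -2.44, -2.24 and -1.71 log2 units in Dnmt1KO and -1.75, -1.4 and -1.68 in WT. These groups overlapped narrowly, through Dnmt1KO replicate 3 (-1.71) and WT replicate 1 (-1.75). Their means differed by -0.52, close to the -0.53 of Esrp2 alone. The part of Nfatc3 reads in the Esrp2 values was not tested.

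Esrp1, the paralogue with the same exon targets, had log2 values of 11.67, 11.60 and 12.24 in Dnmt1KO and 11.94, 12.18 and 12.09 in WT. Dnmt1KO replicates 1 and 2 were the lowest of the 6 libraries and Dnmt1KO replicate 3 was the highest, so the groups overlapped. The difference of -0.23 ± 0.17 (SE, 95% interval -0.61 to 0.15) was no call (limma adjusted p = 1), and it ran from -0.43 without Dnmt1KO replicate 3 (adjusted p = 0.269) to -0.15 without Dnmt1KO replicate 1 and -0.11 without Dnmt1KO replicate 2. Within a library Esrp1 exceeded Esrp2 by 0.50, 0.32 and 0.63 log2 units in Dnmt1KO and by 0.15, 0.17 and 0.23 in WT, a scale not corrected for exon length. Compared with WT, the distance was thus larger in each Dnmt1KO library, by 0.30 on average, and this difference was chosen after the values were seen. It restates the fold change of -0.53 for Esrp2 beside -0.23 for Esrp1. The share of all gene pairs so separated was not computed. Per length, Esrp2 was still above Esrp1 in Dnmt1KO replicates 1 (5.24 against 5.09 RPKM) and 2 (5.61 against 4.82) and below it in replicate 3 (7.07 against 7.54).

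Grhl2, a grainyhead factor that activates junction genes, had log2 values of 11.19, 10.77 and 11.44 in Dnmt1KO and 11.18, 11.35 and 11.30 in WT. The WT values were close together and the Dnmt1KO values lay on both sides of them (-0.15 ± 0.17 SE, limma adjusted p = 1). Ovol2, a zinc-finger factor that represses Zeb1 and other mesenchymal genes, had only 48 to 90 reads a library. Its log2 values were 8.17, 7.94 and 8.39 in Dnmt1KO and 8.50, 8.41 and 8.10 in WT, and the groups overlapped (-0.17 ± 0.23 SE, 95% interval -0.70 to 0.36, adjusted p = 1), with -0.06 to -0.29 when 1 library was left out. Ovol2 shares 17.0% of its exon length with an opposite-strand gene, 1700108N11Rik, and reads over those shared bases belong to either gene if strand was not used.

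Elf3, an ETS factor of epithelia, had log2 values of 9.06, 8.72 and 9.60 in Dnmt1KO and 8.69, 9.10 and 8.59 in WT. Dnmt1KO replicate 3 was the highest library, with 160 reads against 83 to 108 in the other 5, and the groups overlapped (0.33 ± 0.26 SE, limma adjusted p = 1). Without that library the difference was 0.10, and without Dnmt1KO replicate 2 it was 0.54.

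St14, the protease matriptase, had log2 values of 12.77, 12.20 and 12.45 in Dnmt1KO and 12.14, 12.51 and 12.07 in WT. Dnmt1KO replicate 1 was the highest, and without it the difference of 0.23 ± 0.17 (SE, limma adjusted p = 1) was 0.08, while it was 0.37 without Dnmt1KO replicate 2 and also without WT replicate 2. Rab25 had log2 values of 9.86, 9.56 and 9.96 in Dnmt1KO and 9.35, 9.79 and 9.64 in WT, from 149 to 205 reads a library. Its groups overlapped too (0.20 ± 0.18 SE, 95% interval -0.21 to 0.61, limma adjusted p = 1), and the difference was 0.08 without WT replicate 1, 0.12 without Dnmt1KO replicate 3 and 0.31 without Dnmt1KO replicate 2. The upper ends of the 95% intervals were 0.93 for Elf3 and 0.61 for both St14 and Rab25, so a difference of that size was not excluded at this spread.

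Zeb2, the mesenchymal repressor that was measured, had log2 values of 14.63, 14.06 and 14.29 in Dnmt1KO and 14.31, 14.26 and 14.48 in WT. Both the highest and the lowest library were Dnmt1KO (-0.02 ± 0.14 SE, 95% interval -0.35 to 0.30, limma adjusted p = 1). The sign of this difference turned without Dnmt1KO replicate 2 (0.11) or WT replicate 3 (0.04). Esrp2 minus Zeb2 was -3.45, -2.78 and -2.68 log2 units in the Dnmt1KO libraries and -2.51, -2.25 and -2.62 in WT, without correction for length. For Esrp1 the same distance overlapped between the groups. The distance of Esrp2 did not overlap, but Zeb2 itself hardly differed, so it mostly repeats the separation of Esrp2. These pairs were outside the planned comparisons, and the share of all genes so separated from Zeb2 was not computed.

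**Figure D2:**
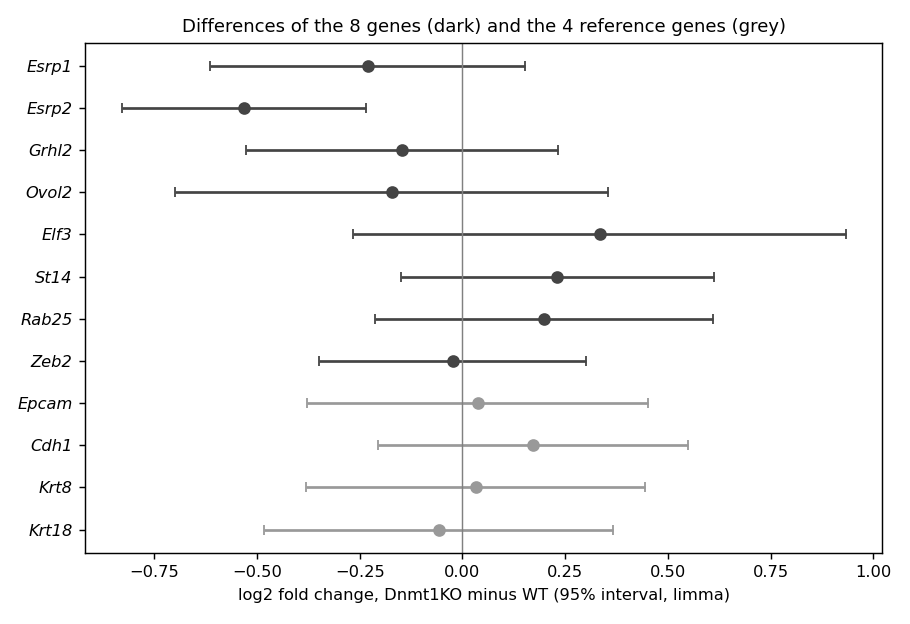
Log2 fold changes, Dnmt1KO minus WT, of the 8 genes (dark) and 4 epithelial reference genes (grey) with limma's 95% intervals. The interval of Esrp2 alone among the 12 lies wholly on one side of 0.

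Epithelium is one part of whole lung, so each gene was also read against Epcam, the adhesion gene Cdh1 and the simple-epithelium keratins Krt8 and Krt18 of the same library. The mean log2 value of these 4 genes was 13.11, 12.84 and 13.47 in Dnmt1KO and 12.86, 13.27 and 13.16 in WT. Its group means differed by 0.05, less than the SD of 0.32 and 0.21 within the groups. Dnmt1KO replicate 3 was thus the richest and Dnmt1KO replicate 2 the poorest library in this measure. The mean of the 7 epithelial regulators, each centred on its own mean, followed the same order at these ends, at 0.23 in Dnmt1KO replicate 3 and -0.28 in Dnmt1KO replicate 2.

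Relative to the reference, both splicing factors were lower in each Dnmt1KO library than in any WT library. Esrp2 lay at -1.94, -1.56 and -1.86 log2 units in Dnmt1KO and at -1.07, -1.26 and -1.30 in WT, a difference of -0.58. Esrp1 lay at -1.44, -1.24 and -1.23 in Dnmt1KO and at -0.92, -1.09 and -1.07 in WT, a difference of -0.28, with an SD of 0.12 and 0.09 in place of the 0.35 and 0.12 of its unadjusted values. Exact two-sided permutation tests gave p = 0.1 for both, again the smallest possible.

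Grhl2 had the same direction, at -1.93, -2.07 and -2.04 in Dnmt1KO against -1.69, -1.91 and -1.86 in WT, although -1.93 and -1.91, the nearest libraries of the 2 groups, almost met. Elf3 went the other way, at -4.05, -4.12 and -3.87 in Dnmt1KO against -4.17, -4.17 and -4.57 in WT. Its nearest libraries, at -4.12 and -4.17, almost met too, from 83 reads in Dnmt1KO replicate 2 against 103 and 108 in WT. Ovol2, St14, Rab25 and Zeb2 overlapped between the groups. Thus 3 of 8 genes lay wholly lower and 1 wholly higher, beside 1.31% and 1.82% of all genes relative to the same reference. Most of those genes are not epithelial. Of 24 other junction and polarity genes, 5 lay wholly lower (Cldn6, Marveld3, Cgn, Crb3 and Mal2) and 1 wholly higher (Pkp3), so other epithelial genes did so too. Of the other epithelial transcription factors named here, Foxa1 (-1.56), Foxa2 (-0.47) and Nkx2-1 (-0.37) lay wholly lower and Trp63 (2.03) wholly higher.

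Limma's test of these relative values called none of the 8 genes, against 0.876% of all genes called (0.77% higher and 0.106% lower). At an unadjusted p under 0.05 there was Esrp2 alone (-0.58 ± 0.26 SE, limma adjusted p = 1), against 2.68% of all genes, of which those with lower values in Dnmt1KO made up 0.628% of the table. Subtracting 1 reference from every gene gave all of them a shared deviation. The fit then gave most genes 1 common spread at a given level in place of their own. Its errors are thus wider for the splicing factors than their own libraries show and narrower for some genes that vary more. The robust fit left some of the most variable genes, such as Twist1 (SE 1.36, SDs 1.68 and 1.65), with wide errors. The other 5 measured epithelial regulators were also used in place of the reference, a choice made after the data were seen. Against them the differences were -0.62 for Esrp2 and -0.32 for Esrp1, both without overlap (exact permutation p = 0.1 for each). Unadjusted, they were -0.53 and -0.23. Of these 5, Elf3, St14 and Rab25 had positive and Grhl2 and Ovol2 negative fold changes, so the reference itself adds to the differences. The share of all genes without overlap on this scale was not computed.

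**Figure D3:**
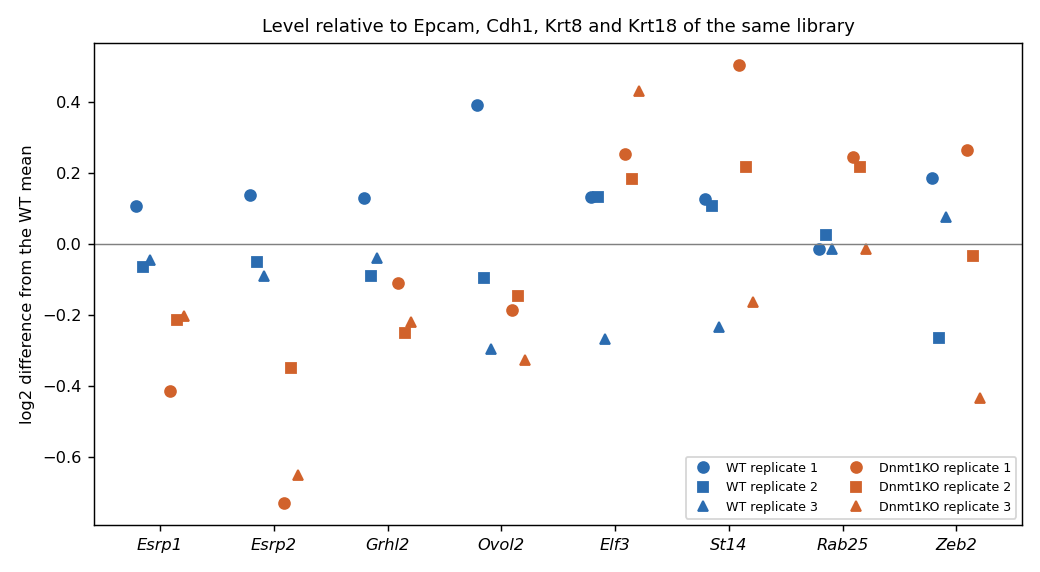
Level of each gene relative to the mean of Epcam, Cdh1, Krt8 and Krt18 in the same library, shown as the log2 difference from the WT mean, with 1 marker per library. The Dnmt1KO markers of Esrp1, Esrp2 and Grhl2 lie below all WT markers, and those of Elf3 above them. The groups almost touch for Grhl2 and Elf3.

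As levels, the genes around these regulators gave no call in any of 9 lists, by limma or by voom. Among 28 junction and polarity genes 13 had a positive and 15 a negative fold change (median -0.04), with 1 at an unadjusted p under 0.05. This was Marveld3, a tight junction protein, at -0.52 ± 0.19 (SE, limma adjusted p = 0.85), while Pkp3, a desmosome protein, was at 0.41 ± 0.19 (adjusted p = 1). Epcam (0.04 ± 0.18), Cdh1 (0.17 ± 0.17), Krt8 (0.03 ± 0.18) and Krt18 (-0.06 ± 0.18) had adjusted p = 1 each.

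Of 16 other epithelial transcription factors 9 had a positive and 7 a negative fold change (median 0.06). At an unadjusted limma p under 0.05 there were 4, with 2 higher and 2 lower, against 4.52% of all genes. Foxa1, a pioneer factor of endoderm, was at -1.51 ± 0.32 (SE, limma adjusted p = 0.223) and its relative Foxa2 at -0.42 ± 0.18 (adjusted p = 1). Foxa1 passed without Dnmt1KO replicate 3 (-1.93, limma adjusted p = 0.000667). Relative to the epithelial reference, limma called Foxa1 lower (-1.56 ± 0.26 SE, adjusted p = 3.44e-07) and Trp63 higher (2.03 ± 0.51, adjusted p = 0.00994). These p-values rest on the common spread over genes. Exact two-sided permutation tests of the same libraries gave p = 0.1 for each, the smallest possible with groups of 3. Foxa1 had SDs of 0.46 in Dnmt1KO and 0.11 in WT on that scale. The libraries of Trp63 had SDs of 1.23 and 0.98 on that scale, so the common spread understates its error. Trp63 is also one of the markers of foregut outside the lung, and the part of such tissue in its value was not tested. Of these markers, Afp (2.10 ± 0.34) and Alb (3.13 ± 0.59) were called higher by the same limma test (adjusted p = 1.6e-07 and 3.53e-05). Afp had SDs of 0.93 in Dnmt1KO and 0.19 in WT on that scale, and Alb had 1.66 and 1.53 with overlapping groups. The common spread thus understates the errors of Afp and Alb too. Exact permutation tests gave p = 0.1 for Afp and p = 0.2 for Alb. Without the reference limma called neither (adjusted p = 0.0879 for Afp and 0.625 for Alb). The basal cell factor Trp63, with 6 to 118 reads a library, was at 2.08 ± 0.68 (adjusted p = 0.691).

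Targets and partners of single regulators gave no call either. Of 12 genes listed as GRHL2 targets, Esrp1, Ovol2 and Rab25 among them, 6 were positive and 6 negative, and Sema3c, a secreted guidance factor, had the smallest p (0.33 ± 0.08 SE, limma adjusted p = 0.279). In the matriptase pathway, with 10 of 11 genes measured and St14 among them, 7 were positive and 3 negative. The 3 were Tmprss2, a membrane protease (-0.64 ± 0.20, adjusted p = 0.607), F2rl1, the receptor that matriptase can cleave (-0.76 ± 0.37, adjusted p = 1), and Prss8, the protease that works with matriptase (-0.35 ± 0.20, adjusted p = 1). Leaving out 1 library gave -0.80 to -0.42 for Tmprss2 (smallest without Dnmt1KO replicate 1), -1.16 to -0.36 for F2rl1 and -0.57 to -0.21 for Prss8 (both smallest without Dnmt1KO replicate 2 and largest without replicate 3). Spint1, the main inhibitor of matriptase, was at 0.27 ± 0.17 (adjusted p = 1). The 11 measured genes of the RAB25 recycling list ran from -0.12 to 0.20 with a median of 0.05, and Rab11a, a relative of RAB25 found in all cells, was at 0.06 ± 0.08 (adjusted p = 1).

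Of 14 genes whose exons ESRP proteins select, 9 were negative and 5 positive, with a median of -0.07. Values per gene sum all transcripts, so they do not show which exons were used. Fgfr3, an FGF receptor, was at 11.82, 11.59 and 11.99 in Dnmt1KO and 12.42, 12.33 and 12.31 in WT, without overlap (-0.55 ± 0.11 SE, limma adjusted p = 0.156). Fgfr2, the best known target, was at 13.83, 13.55 and 13.94 against 14.07, 14.10 and 13.92 (-0.25 ± 0.11, adjusted p = 1), and Enah, a regulator of actin, at -0.18 ± 0.10 (adjusted p = 1). Cd44 (0.05 ± 0.28) and Ctnnd1 (0.03 ± 0.09), which also carry such exons, had adjusted p = 1.

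Other splicing regulators and mesenchymal factors showed no call. The 15 splicing genes ran from -0.09 to 0.41 with a median of 0.02. Rbm47, an RNA-binding protein of epithelia, had the smallest p of them (0.41 ± 0.23 SE, limma adjusted p = 1), followed by Mbnl2 at 0.13 ± 0.12. Mbnl1 (0.09 ± 0.10), Rbfox2 (0.02 ± 0.11) and Qk, the quaking splicing factor (0.05 ± 0.08), had adjusted p = 1. The 16 other EMT factors and mesenchymal genes had a median of 0.01, with 9 positive, 7 negative and none at an unadjusted p under 0.05. Snai1 (-0.14 ± 0.14), Snai2 (0.03 ± 0.15) and Twist1 (0.43 ± 0.98), transcription factors of the mesenchymal state, the filament gene Vim (0.08 ± 0.12) and the cadherin genes Cdh2 (0.14 ± 0.13) and Cdh11 (-0.17 ± 0.09) all had adjusted p = 1. The 7 corepressors of ZEB factors ran from -0.10 to 0.04.

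**Figure D4:**
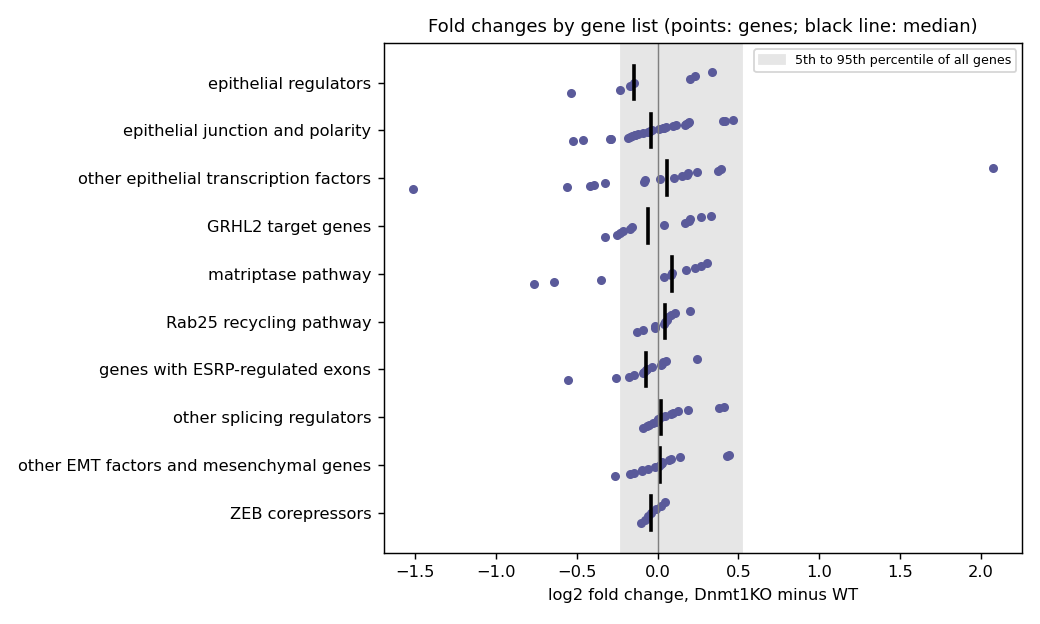
Log2 fold changes, Dnmt1KO minus WT, of the measured genes of 10 lists, with the median as a black line and the 5th to 95th percentile of all genes (-0.23 to 0.52) shaded. The list medians lie between -0.15 for the epithelial regulators and 0.09 for the matriptase pathway.

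Markers of other cells varied between the same libraries. Summed over each list as reads scaled to library depth (RPM), 11 mesenchyme markers ran from 5720 to 6820 in Dnmt1KO and 5530 to 6620 in WT, 7 endothelial markers from 531 to 701 against 427 to 669, and 9 macrophage markers from 105 to 130 against 104 to 125. These 3 groups of cells, together with neural crest (9 markers, 35.4 to 82.5 against 27.8 to 135), are sources of Zeb2, and the sum of each list overlapped between the genotypes. Of the 11 single mesenchyme markers, 1 lay wholly lower in Dnmt1KO and 0 wholly higher, beside 3.99% and 4.79% of all genes. Heart muscle markers were at 338 in Dnmt1KO replicate 2 and 24.0 to 70.5 in the other 5 libraries, and 7 markers of foregut organs outside the lung at 23.1 to 59.3 in Dnmt1KO against 8.50 to 13.1 in WT. The 10 erythroid markers, all with a positive fold change, were at 1880 to 3150 in Dnmt1KO against 1390 to 1900 in WT, and 5 mesothelial markers at 233 to 345 against 232 to 336. No marker was at 0 reads in any library. Elf3, St14, Rab25, Grhl2 and the Esrp genes are also made by other foregut epithelia, and the part of such tissue in their values was not tested.

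The 5 genes most like the mean profile of the 7 epithelial regulators over the 6 libraries, among 11633 other genes with at least 600 reads in all, were Slc7a6os (Pearson's r = 0.993, Spearman's rho = 0.886), Cxcl14 (0.982, 0.943), Mtfp1 (0.982, 0.943), Sinhcaf (0.974, 1.0) and Pex16 (0.968, 0.943). They were picked as the highest of many over only 6 libraries, so these values are a description with no test. Slc7a6os spanned 0.18 log2 units over the libraries and Cxcl14, a chemokine gene, 1.38, so genes of like pattern differed in the size of their swings.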

How the data were processed

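RNA-seq of whole E12.5 mouse lung was deposited as 1 table per library, 3 Dnmt1KO and 3 WT, of Ensembl identifiers and a signal. Per the submitters' processing notes STAR, limma and build mm9 were used, with counter, annotation, filter and scaling not stated in any source at hand. Per the authors' tables and their range, deposited values are log2. In each library 2 to the value was a whole number of reads plus 0.5, times a constant, for 100% of genes within 1e-06 reads, and these reads gave the depths. The lowest gene total was 60 reads.

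GENCODE M21 named 13967 of 14162 identifiers and gave chromosomes and exon lengths. All genes as deposited entered 1 limma fit (limma 3.58.1, R 4.3.3) with genotype as the term and trend and robust moderation, Benjamini-Hochberg adjustment and a threshold of 0.05, and again after subtracting the mean of 4 epithelial reference genes. The fit without the reference was tested on simulated reads with the same dispersion for all genes. The fit relative to the reference was not tested in this way. Intervals are limma's 95% intervals, and counting error adds to the spread of genes with few reads. The members and lists were chosen with earlier results of these data known. Named were the members, Dnmt1, the reference genes, up to 4 genes of each other list with the smallest p, a set list of ESRP target, splicing and EMT genes, and the 5 genes most similar to the epithelial profile. Nfatc3, 1700108N11Rik, Cldn6, Crb3 and Mal2 fall outside that rule and were named after their values were seen, and 1 gene that the rule names is not reported here. Alternatives were a replicate block, removal of the lowest 25% of genes, quantile normalization, median centring, plain moderation, sample weights, voom, total-read scaling, other references and leaving out each library.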

Additional observations from a re-analysis of the deposited data

How the results depend on the processing

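No alternative called any of the 8 genes. Esrp1, Esrp2, Elf3, Ovol2, Rab25 and St14 kept their sign in every alternative that gave a value, with Esrp2 between -0.66 and -0.44 (limma adjusted p 0.0688 to 0.96). Removing the lowest 25% of genes took out Elf3, Ovol2 and Rab25. Over all genes, the 40 called higher became 0 with the lowest 25% removed, 26 with a replicate block and 15 to 42 when 1 library was left out (15 without Dnmt1KO replicate 1, 25 without Dnmt1KO replicate 2 or WT replicate 3). The 1 called lower became 0 with the lowest 25% removed, with plain moderation or with the replicate block, 12 with sample weights and 0 to 17 when 1 library was left out (17 without Dnmt1KO replicate 3, 3 without WT replicate 1). Of the pathway and marker genes called, 0 became 1 with sample weights (the foregut marker Afp) and 0 to 1 when 1 library was left out (Foxa1, without Dnmt1KO replicate 3). The signs of small differences turned with sample weights for Epcam (-0.145), Krt8 (-0.099), Snai2 (-0.012), Vim (-0.021), Cd44 (-0.239), Ctnnd1 (-0.024) and Mbnl1 (-0.013), and for Nfatc3 with quantile normalization (0.018), total-read scaling (0.002) and voom (0.0). Leaving out 1 library turned Grhl2 (-0.299 to 0.034), Zeb2 (-0.177 to 0.11, relative -0.237 to 0.113), Epcam (-0.142 to 0.233), Krt8 (-0.16 to 0.133), Krt18 (-0.239 to 0.048), Snai2 (-0.129 to 0.115), Vim (-0.047 to 0.194), Cd44 (-0.206 to 0.363), Ctnnd1 (-0.024 to 0.085), Twist1 (-0.359 to 1.253), Rbfox2 (-0.066 to 0.111) and Nfatc3 (-0.081 to 0.07). The reference of the other 5 regulators was added after the data were seen. The cause of these shifts was not tested. Whether the replicate numbers pair the libraries is not stated. Deviations from the group mean correlated at -0.003, -0.18 and 0.306 for same-numbered libraries and from -0.373 to 0.379 for others. Such deviations are tied to each other within a group of 3, so they cannot settle it. With the replicate block Esrp2 had a limma adjusted p of 0.265. Depth limits Ovol2, Elf3 and Rab25 most, at 48 to 205 reads a library.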
